A study of Macaca mulatta with 24 samples.

Results

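The genes followed here make, store or burn lipid: 47 genes chosen by name, of 14491 named on the array, whose levels were compared in the colon of rhesus macaques with and without total-body irradiation (TBI). They were 12 enzymes of sterol (cholesterol) synthesis, 4 regulators of that pathway, 9 genes of fatty acid synthesis, 15 genes of fatty acid beta-oxidation, 3 regulators centred on the peroxisome proliferator-activated receptors (PPARs), and 4 genes of fatty acid activation, lipid droplets and PPAR response. Each gene was represented by the brightest of the probes that carry its symbol in the files, that with the highest mean over the 24 arrays, or, where none does, of those named through a gene ID. Of the 47 genes, 38 had a named probe and all 38 were tested: 35 were found by their symbol in the files and 3 (IDI1, ELOVL5 and ANGPTL4) through a gene ID. The other 9 (SQLE, CYP51A1, DHCR7, SREBF2, FADS1, ACADVL, ACADL, ECHS1 and ACSL5) were not analysed here.

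The study set out to follow radiation injury of the gut over dose and time. Young adult male macaques received 1 whole-body exposure to cobalt-60 gamma rays or a sham exposure, and RNA from a piece of colon of each animal was hybridised to its own 1-colour Agilent rhesus array, with no pooling. The 7 groups were sham-irradiated controls (n = 4, labelled day 4 and dose 0), and animals given 6.7 Gy or 7.4 Gy, with 4 animals of each dose sampled at day 4, 4 at day 7 and 2 at day 12. The same 4 controls served all 3 days, no control of day 7 or day 12 was used, and all groups shared the species, the sex and the same piece of gut.

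Cells build cholesterol from acetyl-CoA through the mevalonate pathway and build fatty acids through acetyl-CoA carboxylase and fatty acid synthase, both under SREBP transcription factors. Beta-oxidation shortens fatty acids step by step in mitochondria and peroxisomes, and PPAR transcription factors with the coactivator PGC-1alpha turn on many of its enzymes. The absorptive cells that line the colon are known for their reliance on fatty acid oxidation, above all of the short chain fatty acid butyrate made by gut bacteria.

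Levels are log2 of the processed spot intensity minus the 75th percentile of the same array, so a level of 0 is that percentile, a change of 1 is 2-fold, and levels of different probes were not set against each other. Of 43603 probes, 38220 entered the test and 38200 could be fitted. On each array 66.7 to 85% of spots were well above background. Changes were tested with limma over all of these probes and all 24 arrays; a called gene changed 2-fold or more with a Benjamini-Hochberg adjusted p below 0.05, and a gene is said to have passed where the adjusted p alone was below 0.05. The tissue carried the markers of its label: 7 of 8 absorptive colonocyte markers were tested, and each was well above background on at least 1 control array. Of 7 small intestinal enterocyte markers 4 were tested. The summed linear level of these 4 was 0.199 to 0.296 times the 75th percentile intensity in controls and at most 0.449 in any array.

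On day 4 the lipid genes moved in both directions, with HMGCS1, 5 oxidation genes and PPARG among those lower and the PPAR-responsive genes PLIN2 and ANGPTL4 higher. After 6.7 Gy, 6 of 38 genes were called, 2 higher and 4 lower, against 3.61% of all probes tested (1.83% higher and 1.77% lower). After 7.4 Gy, 11 of 38 were called, 2 higher and 9 lower, against 7.04% of all probes (3.37% higher and 3.66% lower). With 1 probe for each of 13435 named genes, as was done for the lipid genes, these backgrounds were 4.25% and 8.22%. At any fold, 10 genes after 6.7 Gy and 17 after 7.4 Gy passed as lower, against 5.2% and 11.6% of all probes, and 2 passed as higher at each dose, against 4.51% and 8.36%. The 6 genes called after 6.7 Gy were all called after 7.4 Gy, with the 2 comparisons sharing their 4 controls. These counts include THRSP, which entered the test through the controls and was well above background on no array of day 4. Without it 5 of 37 genes were called after 6.7 Gy, 2 higher and 3 lower, and 10 of 37 after 7.4 Gy, 2 higher and 8 lower. The median change over the 38 genes was -0.43 after each dose, beside -0.07 and -0.08 over all probes. In bulk tissue fewer cells of a type and less RNA per cell cannot be told apart.

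**Figure D1:**
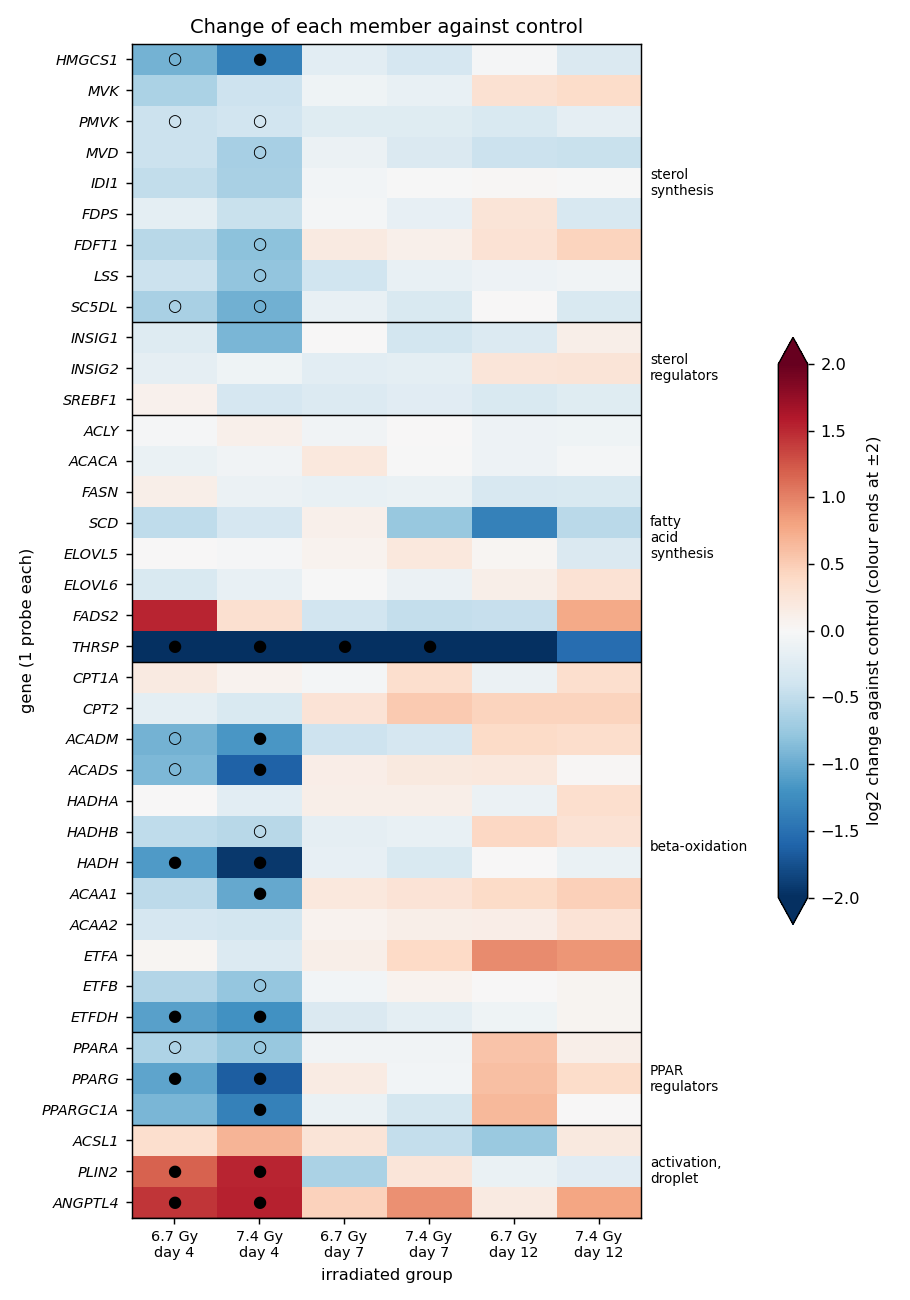
Change against the 4 controls on the log2 scale for each of the 38 tested lipid genes (rows, by class) in each of the 6 irradiated groups (columns); the colour scale ends at -2 and 2, a filled circle marks a called gene and an open circle one that passed with less than a 2-fold change. On day 4 PLIN2 and ANGPTL4 are called higher and HADH, ETFDH, PPARG and THRSP lower at both doses, and on days 7 and 12 THRSP on day 7 is the only call. THRSP was well above background on no array of day 4 or day 7, so nothing is read from its calls.

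All 9 tested sterol enzymes had a lower mean than the controls on day 4 at both doses (8 of 9 after 6.7 Gy with scaling to the spike-in controls or with normexp background correction). Of 13435 named genes with 1 probe each, 53.7% had a lower mean after 6.7 Gy and 51.8% after 7.4 Gy. The median change of the sterol enzymes was -0.49 after 6.7 Gy (range -0.94 to -0.20), with 3 of 9 passing, and -0.66 after 7.4 Gy (range -1.36 to -0.38), with 6 of 9 passing. Of all probes 5.2% and 11.6% passed as lower. HMGCS1, the synthase that makes HMG-CoA at the entry of the pathway, was the only one called. Its level was 2.67, 4.15, 4.23 and 4.73 in the 4 controls, 2.76, 2.80, 3.09 and 3.37 on day 4 after 6.7 Gy and 2.17, 2.41, 2.64 and 3.13 on day 4 after 7.4 Gy. Control 3, at 2.67, lay among the irradiated animals, so the groups overlapped. The change was -0.94 ± 0.30 (SE), adjusted p = 0.0497, after 6.7 Gy and -1.36 ± 0.30 (SE), adjusted p = 0.00363, 2.56-fold lower, after 7.4 Gy. HMGCS1 was 3.62 to 3.85 on day 7 after 6.7 Gy and 3.44 to 3.70 after 7.4 Gy, and 3.90 and 3.95 after 6.7 Gy and 3.55 and 3.76 after 7.4 Gy on day 12, where every array lay above all 8 arrays of day 4 and inside the range of the controls.

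FDFT1, squalene synthase, which commits the pathway to sterols, was called only between days. Its level was 3.63, 4.19, 4.23 and 4.78 in controls, 3.29, 3.65 and 4.00 in the 3 arrays measured on day 4 after 6.7 Gy and 3.20, 3.33, 3.39 and 3.60 after 7.4 Gy, with 1 spot left out as an outlier. On day 12 it was 4.46 and 4.52 after 6.7 Gy and 4.61 and 4.68 after 7.4 Gy, above every array of day 4. All 4 arrays of 7.4 Gy on day 4 were below the 4 controls, but the change, -0.82 ± 0.19 (SE), adjusted p = 0.00719, was short of 2-fold. The rise from day 4 to day 12 was 1.05 ± 0.17 (SE), adjusted p = 0.000446, and was 0.83 to day 7 (adjusted p = 0.000744). The call on day 12 ended when replicate 2 of 6.7 Gy on day 4 was left out (0.96), and the other FDFT1 probe gave 0.80 (adjusted p = 0.00373). Among the other sterol enzymes 4 passed at less than 2-fold. SC5DL (sterol C5-desaturase, now SC5D) changed by -0.65 and -0.96 at the 2 doses and PMVK (phosphomevalonate kinase) by -0.43 and -0.38, and after 7.4 Gy LSS (lanosterol synthase) changed by -0.80 and MVD (mevalonate diphosphate decarboxylase) by -0.66. MVK, IDI1 and FDPS, which act between mevalonate and farnesyl diphosphate, did not pass, with changes of -0.65 to -0.20.

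None of the 3 tested regulators of the sterol pathway was called by the probe that stood for it. INSIG1, which holds SREBP in the endoplasmic reticulum when sterols are plentiful and is itself induced by SREBP, was at -0.79, -0.41, 0.68 and 0.80 in controls, -0.57, -0.33, -0.25 and 0.42 on day 4 after 6.7 Gy and -1.46, -1.22, -0.49 and -0.22 after 7.4 Gy. The irradiated arrays overlapped the controls at both doses. The change was -0.25 ± 0.34 (SE), adjusted p = 0.684, and -0.92 ± 0.34 (SE), adjusted p = 0.0601. The probes of INSIG1 disagreed here: 2 brighter ones, named INSIG1 only through a gene ID, were called lower after 7.4 Gy, at -1.13 (adjusted p = 0.0304) and -1.30 (adjusted p = 0.0492). The first of these, the brightest, was also called higher from day 4 to day 12 (1.09, adjusted p = 0.0149), so that with it 12 lipid genes in place of 11 were called after 7.4 Gy on day 4 and 13 in place of 12 from day 4 to day 12. SREBF1, the gene of SREBP-1, which drives lipogenic genes, was at 1.26, 1.57, 2.14 and 2.18 in controls, 1.50 to 2.30 after 6.7 Gy and 1.22, 1.41, 1.57 and 1.58 after 7.4 Gy on day 4. These levels overlapped too, with changes of 0.08 (adjusted p = 0.867) and -0.34 (adjusted p = 0.303). INSIG2, a close relative of INSIG1, changed by -0.17 and -0.09.

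The core of fatty acid synthesis did not pass the test on day 4 at either dose. The median change of the 8 tested genes was -0.07 after 6.7 Gy and -0.09 after 7.4 Gy (0.15 and 0.20 with scaling to the spike-in controls), with THRSP the only gene passing. FASN, fatty acid synthase, changed by 0.12 (95% interval -0.25 to 0.49) and -0.12 (-0.49 to 0.25). ACLY, which makes cytosolic acetyl-CoA from citrate, changed by -0.02 (-0.31 to 0.27) and 0.10 (-0.19 to 0.39), and ACACA, acetyl-CoA carboxylase, by -0.13 (-0.47 to 0.22) and -0.07 (-0.41 to 0.28). These intervals leave out a 2-fold change in either direction for the 3 genes at both doses. SCD, the stearoyl-CoA desaturase, and the elongases ELOVL5 and ELOVL6 changed by -0.50, 0.00 and -0.30 after 6.7 Gy and -0.33, -0.03 and -0.14 after 7.4 Gy, with adjusted p of 0.511 or more.

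FADS2, the delta-6 desaturase of polyunsaturated fatty acids, varied widely between animals. Its level was 1.44, 1.74, 1.94 and 2.68 in controls, 2.35, 3.37, 3.64 and 4.56 on day 4 after 6.7 Gy and 1.61, 2.20, 2.45 and 2.83 after 7.4 Gy. Of the 4 arrays of 6.7 Gy, 3 stood above all controls. Neither difference from the controls on day 4 passed the test (1.53 ± 0.50 (SE), adjusted p = 0.0581, and 0.32 ± 0.50 (SE), adjusted p = 0.695). On day 7 FADS2 was at 1.05, 1.15, 1.66 and 2.42 after 6.7 Gy and 0.85, 1.31, 1.45 and 2.32 after 7.4 Gy, and on day 12 at 1.46 and 1.52 after 6.7 Gy and 1.47 and 3.96 after 7.4 Gy, the last array being the second animal of 7.4 Gy. Over both doses FADS2 was called lower on day 7 than on day 4 (-1.35 ± 0.35 (SE), adjusted p = 0.00884), although the 8 arrays of each day overlapped and its other probe gave -0.43 (adjusted p = 0.319).

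THRSP, a nuclear protein that marks lipogenic activity, was dim. It was well above background on 3 of 4 control arrays and on none of the 16 arrays of day 4 and day 7, so no fold is given there. It entered the test through the controls, its probe being well above background on 4 of 24 arrays, so its p-values and calls rest on signals not well above background and nothing is read from them. Without it 5 of 37 lipid genes were called after 6.7 Gy and 10 of 37 after 7.4 Gy on day 4, and 0 of 37 at each dose on day 7. Control levels were -5.29, -4.55, -4.02 and -3.51, against -7.66, -6.76, -6.42 and -4.96 at 6.7 Gy and -7.79, -6.65, -6.45 and -6.17 at 7.4 Gy on day 4. Only the highest array of 6.7 Gy reached into the range of the controls. On day 7 the levels were -7.48, -7.12, -6.18 and -5.97 after 6.7 Gy and -7.55, -7.51, -7.41 and -6.86 after 7.4 Gy, again signals not well above background. The call on day 7 after 6.7 Gy ended without any 1 of 18 of the 24 arrays (adjusted p 0.0511 to 0.169; all but control 3, replicates 1 and 2 of 6.7 Gy and 1 of 7.4 Gy at day 4, and replicate 2 of 6.7 Gy and 4 of 7.4 Gy at day 7), and that after 7.4 Gy ended without replicate 4 of its own group (-2.93, adjusted p = 0.0559).

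Beta-oxidation genes made up 5 of the 11 calls on day 4 after 7.4 Gy and 2 of the 6 after 6.7 Gy. The median change of the 12 tested genes was -0.52 after 6.7 Gy, with 2 called and 4 passing, all lower, and -0.67 after 7.4 Gy, with 5 called and 7 passing, all lower. Of all probes 1.77% and 3.66% were called lower at the 2 doses, and 5.2% and 11.6% passed as lower. HADH, the short chain 3-hydroxyacyl-CoA dehydrogenase, stood at 2.53, 3.02, 3.28 and 3.38 in controls. On day 4 it was 1.61, 1.75, 2.03 and 2.29 after 6.7 Gy and 0.84, 1.08, 1.16 and 1.42 after 7.4 Gy. Every irradiated array was below every control, and the 4 arrays of 7.4 Gy were below the 4 of 6.7 Gy. The change was -1.13 ± 0.24 (SE), adjusted p = 0.00798, and -1.93 ± 0.24 (SE), adjusted p = 4.82e-05, or 2.19-fold and 3.81-fold lower. On day 7 the level was 2.47, 2.75, 2.97 and 3.36 after 6.7 Gy and 2.14, 2.60, 3.02 and 3.25 after 7.4 Gy, and on day 12 2.86 and 3.27 after 6.7 Gy and 2.84 and 3.02 after 7.4 Gy, back among the controls in most arrays.

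ACADS, the short chain acyl-CoA dehydrogenase that takes the first step on butyrate, was at 5.50, 5.64, 5.85 and 5.91 in controls, 4.35, 4.78, 4.79 and 5.42 on day 4 after 6.7 Gy and 3.69, 3.96, 4.29 and 4.48 after 7.4 Gy. Neither dose overlapped the controls. The fall after 6.7 Gy passed below 2-fold (-0.89 ± 0.23 (SE), adjusted p = 0.0198), and that after 7.4 Gy was 3.08-fold (-1.62 ± 0.23 (SE), adjusted p = 0.000132). By day 7 its levels were 5.68, 5.90, 5.91 and 5.95 after 6.7 Gy and 5.39, 5.70, 6.15 and 6.45 after 7.4 Gy, and on day 12 5.87 and 6.02 after 6.7 Gy and 5.59 and 5.92 after 7.4 Gy. All of these arrays but the lowest of 7.4 Gy on day 7 stood above all 8 of day 4. ACADM, which does the same step on medium chains, was at 2.83, 3.00, 3.18 and 3.63 in controls, 1.81, 2.19, 2.25 and 2.62 on day 4 after 6.7 Gy and 1.78, 1.85, 1.97 and 2.41 after 7.4 Gy. It too was below all controls in all 8 animals, with changes of -0.95 ± 0.27 (SE), adjusted p = 0.0299, and -1.16 ± 0.27 (SE), adjusted p = 0.00498, the second called. It remained mixed on day 7 at 2.31, 2.41, 3.06 and 3.20 after 6.7 Gy and 2.13, 2.59, 3.18 and 3.38 after 7.4 Gy, with some arrays at the level of day 4, and was at 3.47 and 3.62 after 6.7 Gy and 3.44 and 3.58 after 7.4 Gy on day 12.

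ETFDH, which passes electrons from the acyl-CoA dehydrogenases to ubiquinone, was called lower at both doses. Controls were at 1.97, 2.34, 2.50 and 2.63, 6.7 Gy on day 4 at 0.74, 1.32, 1.40 and 1.64 and 7.4 Gy at 0.94, 0.98, 1.17 and 1.51. All 8 irradiated arrays were below the controls. The changes were -1.09 ± 0.28 (SE), adjusted p = 0.0198, and -1.21 ± 0.28 (SE), adjusted p = 0.00545. The first ended as a call without control 2 (adjusted p = 0.0501), control 3 (-1.04, adjusted p = 0.0504) or replicate 2 of 6.7 Gy (-0.91, adjusted p = 0.0641). On day 7 ETFDH was at 1.73, 1.92, 2.05 and 2.56 after 6.7 Gy and 1.59, 1.93, 2.26 and 2.90 after 7.4 Gy, and on day 12 at 2.20 and 2.34 after 6.7 Gy and 1.87 and 2.97 after 7.4 Gy.

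ACAA1, the peroxisomal thiolase, was at 3.83, 3.86, 3.93 and 4.16 in controls, 2.75, 3.55, 3.68 and 3.71 on day 4 after 6.7 Gy and 2.57, 2.75, 3.14 and 3.24 after 7.4 Gy. Both irradiated groups were below the controls, and 1 array of 6.7 Gy stood far under its 3 neighbours. The change was -0.52 ± 0.22 (SE), adjusted p = 0.144, and -1.02 ± 0.22 (SE), adjusted p = 0.00382. The call after 7.4 Gy was close to 2-fold and ended without control 1 (-0.95), or replicate 1 (-0.96) or 3 (-0.90) of 7.4 Gy. Levels on day 7 were 3.63, 4.21, 4.22 and 4.60 after 6.7 Gy and 4.05, 4.09, 4.10 and 4.65 after 7.4 Gy, and on day 12 4.30 and 4.35 after 6.7 Gy and 4.30 and 4.55 after 7.4 Gy, most of them above the controls. ETFA, a subunit of the electron transfer flavoprotein, was dim and not called on day 4 (0.04 and -0.27, adjusted p = 0.97 and 0.691). Its level was -3.93, -2.90, -2.71 and -1.96 in controls, -3.30, -2.89, -2.59 and -2.57 and -4.23, -3.02, -2.95 and -2.39 on day 4, -3.69, -2.87, -2.63 and -1.84 after 6.7 Gy and -3.18, -2.40, -2.25 and -2.06 after 7.4 Gy on day 7, and -2.09 and -1.75 after 6.7 Gy and -2.04 and -1.95 after 7.4 Gy on day 12, the groups of day 12 being above all 8 arrays of day 4.

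**Figure D2:**
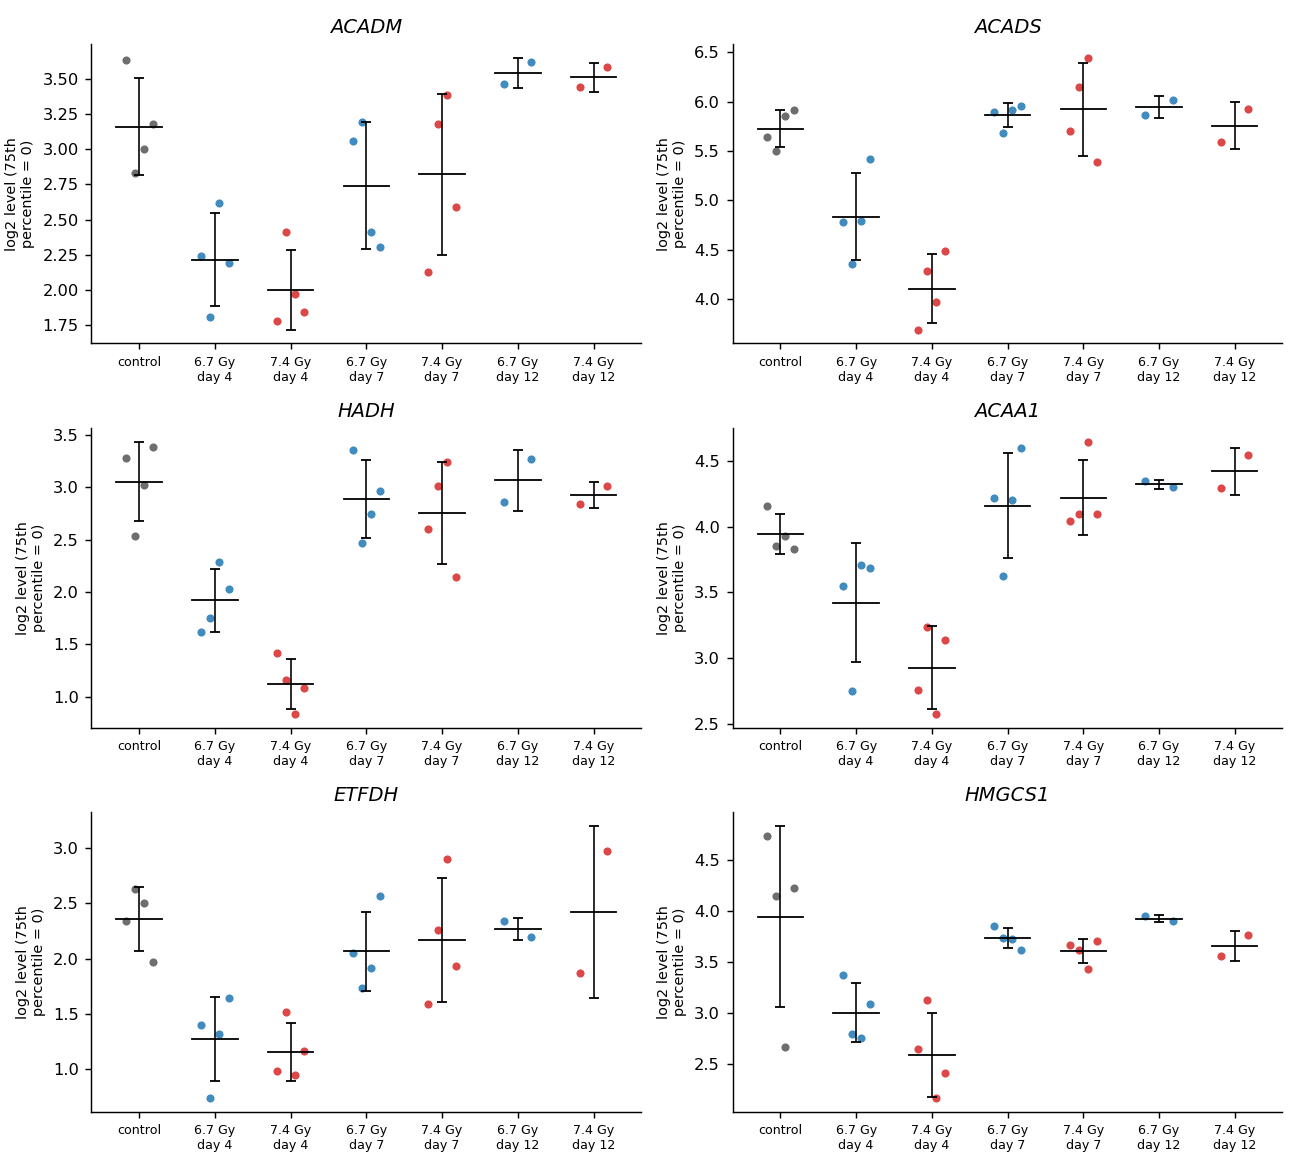
Level of ACADM, ACADS, HADH, ACAA1, ETFDH and HMGCS1 (y axis, log2 intensity minus the 75th percentile of the array) in each of the 24 arrays (points) by group (x axis); lines are group means and bars SDs. The 5 oxidation genes were picked for being called on day 4 after 7.4 Gy and do not stand for the 12 tested. In these 5 genes all 8 arrays of day 4 lie below the 4 controls, and for HMGCS1 control 3 at 2.67 lies among the arrays of day 4.

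The other 7 beta-oxidation genes, ETFA among them, were not called against the controls. HADHB (a subunit of the mitochondrial trifunctional protein) and ETFB passed after 7.4 Gy, at -0.56 and -0.78. CPT2 (the inner membrane carnitine transferase), HADHA (the other trifunctional subunit) and ACAA2 (the mitochondrial thiolase) did not pass, with changes of -0.36 to 0.00. CPT1A, which makes the acylcarnitines that enter mitochondria and is taken as the rate-setting step, changed by 0.18 (95% interval -0.32 to 0.69) and 0.07 (-0.44 to 0.57). The entry enzyme thus missed the test where the acyl-CoA dehydrogenases ACADM and ACADS passed, and no test compared these genes with each other.

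Of the regulators, PPARG, a PPAR abundant in colonic epithelium and fat, fell at both doses. Its level was 1.62, 1.97, 2.07 and 2.11 in controls, 0.47, 0.80, 1.09 and 1.21 on day 4 after 6.7 Gy and 0.00, 0.10, 0.41 and 0.65 after 7.4 Gy. No irradiated array reached the controls. The fall was 2.07-fold after 6.7 Gy (-1.05 ± 0.24 (SE), adjusted p = 0.011) and 3.14-fold after 7.4 Gy (-1.65 ± 0.24 (SE), adjusted p = 0.000164). The first went under 2-fold without control 4 (-0.99) or replicate 2 of 6.7 Gy (-0.91). PPARG was at 1.82, 2.08, 2.12 and 2.39 after 6.7 Gy and 1.13, 1.69, 2.22 and 2.48 after 7.4 Gy on day 7 and at 2.52 and 2.56 after 6.7 Gy and 2.16 and 2.47 after 7.4 Gy on day 12, and all 4 arrays of day 12 were above all 4 controls, with no call.

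PPARA, the PPAR that turns on oxidation genes in fasting, was at -1.82, -1.72, -1.62 and -1.55 in controls, -2.48, -2.46, -2.20 and -2.01 on day 4 after 6.7 Gy and -2.68, -2.55, -2.46 and -2.06 after 7.4 Gy. The groups did not overlap, and the fall passed at both doses at less than 2-fold (-0.61 ± 0.15 (SE), adjusted p = 0.0174, and -0.76 ± 0.15 (SE), adjusted p = 0.0021). It was at -2.05, -1.69, -1.67 and -1.55 after 6.7 Gy and -1.97, -1.71, -1.70 and -1.57 after 7.4 Gy on day 7, and at -1.21 and -1.02 after 6.7 Gy and -1.70 and -1.42 after 7.4 Gy on day 12. PPARGC1A, the gene of the coactivator PGC-1alpha, which promotes mitochondrial gene expression, was at -2.18, -1.30, -0.86 and -0.85 in controls, -2.59, -2.34, -2.24 and -1.67 on day 4 after 6.7 Gy and -3.47, -2.97, -2.33 and -1.80 after 7.4 Gy. Control arrays and irradiated arrays overlapped. It was called after 7.4 Gy (-1.35 ± 0.41 (SE), adjusted p = 0.0252) and not after 6.7 Gy (-0.91 ± 0.41 (SE), adjusted p = 0.16), where its other probe was called (-1.31, adjusted p = 0.0235). The call after 7.4 Gy ended without control 1 (-1.20), control 2 (-1.20) or control 4 (-1.35, adjusted p = 0.0508), or replicate 1 (-1.07) or 4 (-1.24) of 7.4 Gy. On day 7 it was at -2.19, -1.53, -1.06 and -0.94 after 6.7 Gy and -2.44, -1.68, -1.66 and -0.82 after 7.4 Gy, and on day 12 at -1.09 and -0.19 after 6.7 Gy and -1.71 and -0.88 after 7.4 Gy.

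PLIN2 and ANGPTL4, both known PPAR targets, rose on day 4. PLIN2, which coats lipid droplets, was at 0.21, 0.59, 0.77 and 0.99 in controls, 1.67, 1.73, 1.87 and 1.98 on day 4 after 6.7 Gy and 1.91, 1.92, 1.95 and 2.86 after 7.4 Gy. Every irradiated array was above every control. The rise was 1.17 ± 0.34 (SE), adjusted p = 0.0353, and 1.52 ± 0.34 (SE), adjusted p = 0.00437, or 2.25-fold and 2.87-fold. The call after 6.7 Gy ended without control 1 (1.22), control 3 (1.03) or control 4 (1.16), or replicate 1 (1.20), 2 (1.12) or 3 (1.15) of 6.7 Gy, with adjusted p between 0.0589 and 0.0952, and its 2 other probes gave 0.95 (adjusted p = 0.0581) and 1.09 (adjusted p = 0.0353, called). On day 7 PLIN2 was at -1.01, 0.05, 0.20 and 0.75 after 6.7 Gy and 0.51, 0.64, 0.90 and 1.46 after 7.4 Gy, and on day 12 at 0.30 and 0.71 after 6.7 Gy and -0.30 and 1.13 after 7.4 Gy, with arrays both above and below the range of the controls.

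ANGPTL4, a secreted inhibitor of lipoprotein lipase, was at -3.69, -3.15, -3.05 and -2.75 in controls, -2.34, -2.03, -1.64 and -0.94 on day 4 after 6.7 Gy and -2.46, -1.57, -1.53 and -0.89 after 7.4 Gy. The groups did not overlap at either dose. The rise was 2.68-fold (1.42 ± 0.31 (SE), adjusted p = 0.00792) and 2.92-fold (1.55 ± 0.31 (SE), adjusted p = 0.00183). On day 7 the level was -2.83, -2.71, -2.67 and -2.59 after 6.7 Gy and -2.45, -2.43, -2.29 and -1.82 after 7.4 Gy, and on day 12 -3.41 and -2.55 after 6.7 Gy and -2.41 and -2.34 after 7.4 Gy, nearly all of these arrays being above the control median and none called. ACSL1, which activates long chain fatty acids, changed by 0.33 and 0.68 on day 4 (adjusted p = 0.517 and 0.117).

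**Figure D3:**
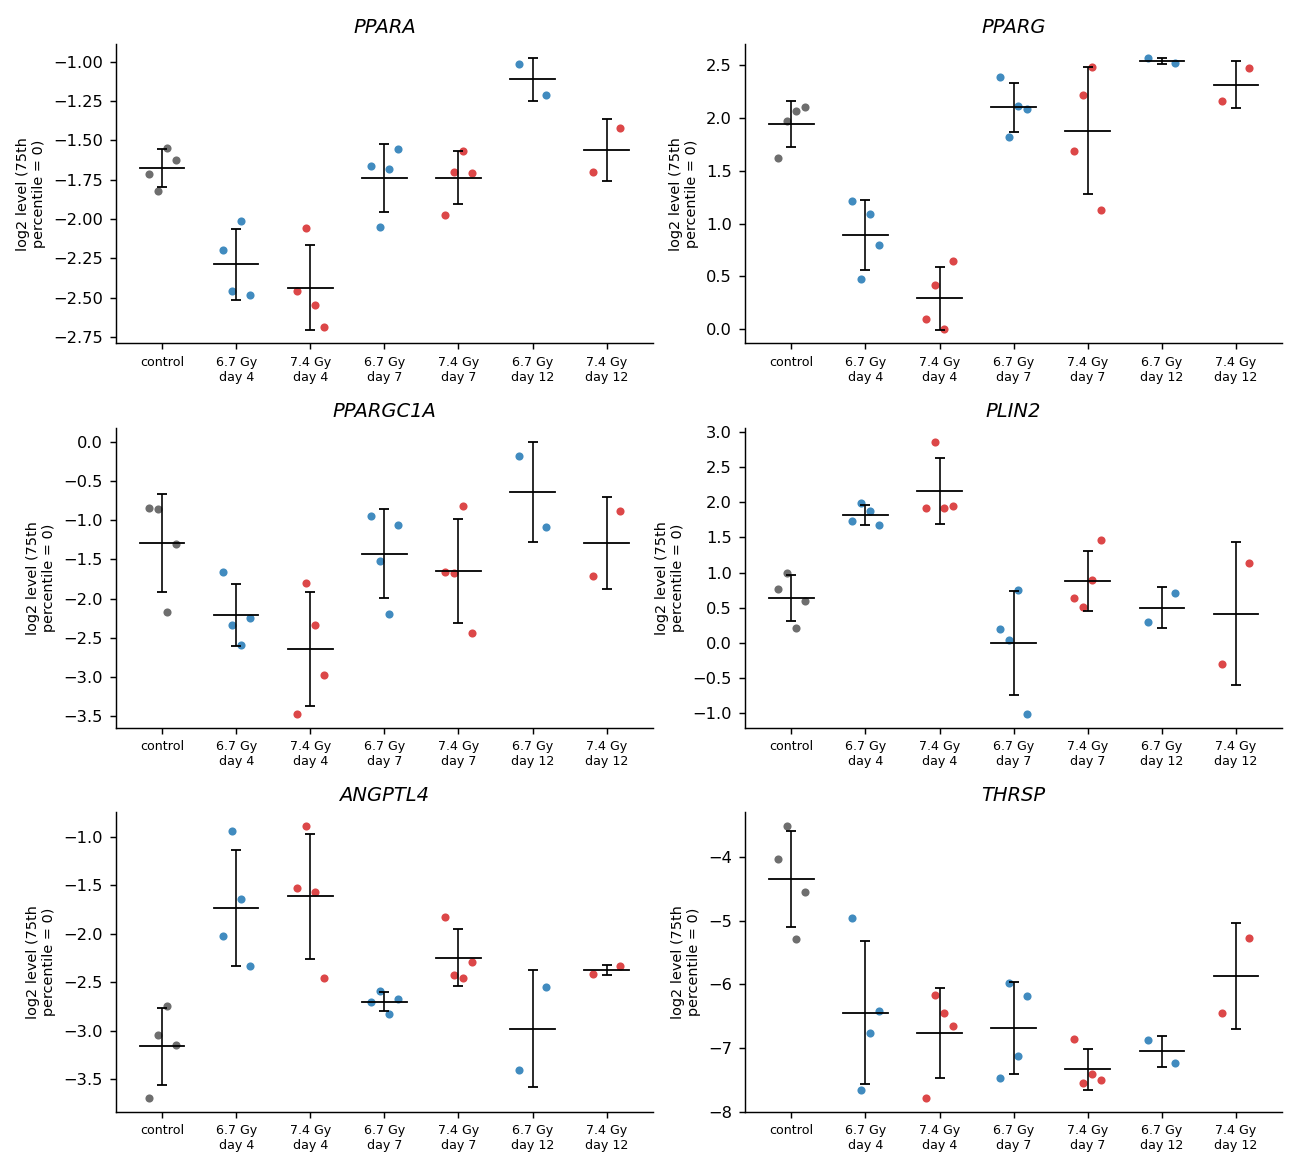
Level of PPARA, PPARG, PPARGC1A, PLIN2, ANGPTL4 and THRSP (y axis, log2 intensity minus the 75th percentile of the array) in each of the 24 arrays (points) by group (x axis); lines are group means and bars SDs. PPARA and PPARG on day 4 lie below, and PLIN2 and ANGPTL4 above, all 4 controls, and the THRSP signals of day 4 and day 7 are not well above background.

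Markers of the absorptive epithelium were lower in the same animals. On day 4, 5 of 7 colonocyte markers were called lower after 6.7 Gy and 7 of 7 after 7.4 Gy, against 1.77% and 3.66% of all probes, with median changes of -2.63 and -4.32. No array of day 4 reached the controls in any of the 7. The share of all probes without overlap was not computed, so nothing is read from this count. CA1, the carbonic anhydrase of mature colonocytes, was called lower at both doses and was well above background on 2 and 1 of 4 arrays. The summed linear level of the 7 markers was 377 to 676 in controls, 45.8 to 206 on day 4 after 6.7 Gy, 10.8 to 177 on day 4 after 7.4 Gy, 310 to 366 and 69.6 to 469 on day 7, and 510 to 588 and 452 to 477 on day 12. The summed goblet cell markers were 344 to 460 in controls, 170 to 302 after 6.7 Gy and 55.4 to 308 after 7.4 Gy on day 4. The 7 tested adipocyte markers summed to 2.85 to 19.7 in controls, 15.7 to 25.1 after 6.7 Gy and 21.3 to 30.4 after 7.4 Gy, with 0 of 7 called. The sums of the neutrophil, proliferation, fibroblast and macrophage lists had higher medians on day 4 than in controls at both doses. Those of the lymphocyte lists had lower medians, with overlapping arrays. The T lymphocyte median was 13.0 in controls, 8.10 after 6.7 Gy and 8.06 after 7.4 Gy. For B lymphocytes it was 1.90, 1.56 and 1.23. The smooth muscle, hepatocyte and small intestinal enterocyte medians moved in opposite directions at the 2 doses. The 3 tested neutrophil markers summed to 0.594 to 0.714 in controls, 0.612 to 4.19 after 6.7 Gy and 0.940 to 10.3 after 7.4 Gy, the 5 proliferation markers to 6.78 to 12.7, 13.1 to 20.7 and 12.2 to 21.9, and the 6 fibroblast markers to 106 to 256, 156 to 194 and 238 to 342. S100A8 and S100A9 of neutrophils and COL1A2 and COL3A1 of fibroblasts were called higher after 7.4 Gy, and AURKA of the proliferation list after 6.7 Gy. The part of these cell types in the lipid gene changes was not tested.

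Averaged in each animal, the sterol enzymes and the oxidation genes lay close together on day 4, and the group means of fatty acid synthesis lay above both. The mean of the sterol enzymes, each taken against its own control mean, was -0.53 ± 0.19 (SD, n = 4) after 6.7 Gy and -0.72 ± 0.09 after 7.4 Gy, and that of the beta-oxidation genes was -0.50 ± 0.27 and -0.78 ± 0.23. The SD in controls was 0.30 for sterol and 0.13 for oxidation. The difference of the 2 means was -0.03 ± 0.12 and 0.06 ± 0.20 on day 4. Fatty acid synthesis, with THRSP not well above background among its 8 genes, was at -0.18 ± 0.28 and -0.34 ± 0.05 on day 4. Its 7 other genes were at 0.10 ± 0.17 and -0.04 ± 0.11, with an SD of 0.31 in controls. No test compared the classes with each other.

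**Figure D4:**
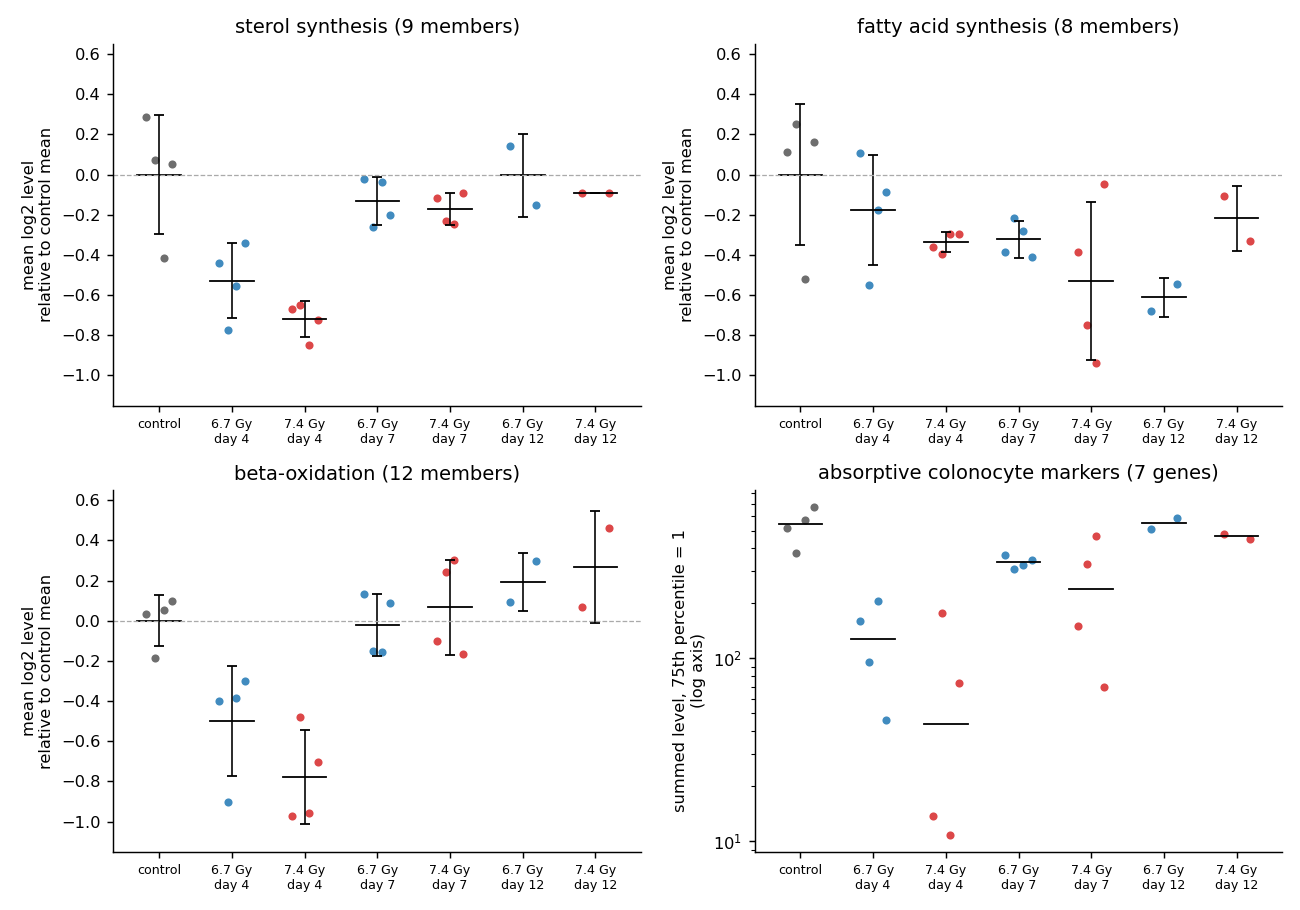
Mean log2 level relative to the control mean of each gene for the sterol synthesis, fatty acid synthesis and beta-oxidation genes, and the summed linear level of 7 absorptive colonocyte markers (log axis), in each of the 24 arrays by group; lines are group means, with SD bars, or the median for the markers. The oxidation means of day 4 run from -0.97 to -0.30 and the marker sums of the same animals from 10.8 to 206, below all 4 controls.

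No difference between the 2 doses passed the test in the 38 genes. At 7.4 Gy against 6.7 Gy limma called 0 of 38 on day 4, day 7 and day 12, as it did 0% of all probes on each day, and the methods' t-test also called 0 of 38 each time. At an unadjusted p under 0.05 there were 5 of 38 genes on day 4, 2 on day 7 and 1 on day 12, against 6.18%, 1.86% and 3.63% of all probes. Those of day 4, all lower after 7.4 Gy, were FADS2, ACADS, HADH, ACAA1 and PPARG. HADH differed by -0.80 (95% interval -1.31 to -0.29, adjusted p = 0.533) and ACADS by -0.73 (-1.21 to -0.25, adjusted p = 0.552). All 12 oxidation genes had a lower mean after 7.4 Gy than after 6.7 Gy on day 4 (10 of 12 with scaling to the spike-in controls and 11 of 12 with quantile normalization), with a median difference of -0.20 beside -0.20 over the 38 genes. Over all probes the median difference was -0.026 and 45.8% were above 0, and none of the 12 passed.

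Against the controls few lipid genes differed after day 4. On day 7, 1 of 38 was called after 6.7 Gy and 1 after 7.4 Gy, THRSP each time, against 0.319% and 0.39% of all probes. Its signals on day 7 were not well above background, and without it 0 of 37 genes were called at each dose. On day 12, with 2 animals a group, limma called 0 of 38 at each dose against 0.0183% and 0.0262% of all probes, with 3 and 1 genes at an unadjusted p under 0.05 (7.11% and 6.87% of all probes) and 0 called by the methods' t-test. The class medians against the controls on day 12 were 0.00 and -0.19 for sterol synthesis, -0.21 and -0.19 for fatty acid synthesis and 0.18 and 0.31 for beta-oxidation.

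The change between days, over both doses, was tested directly. From day 4 to day 7, 6 of 38 genes were called, against 4.44% of all probes: ACADS (1.42), HADH (1.29), ACAA1 (1.02) and PPARG (1.40) rose and FADS2 and PLIN2 (-1.55) fell. From day 4 to day 12, 12 of 38 were called, 10 higher and 2 lower, against 6.51% of all probes (3.83% higher and 2.68% lower). Of the 10 that rose, 6 were beta-oxidation genes: HADH by 1.47 ± 0.21 (SE), adjusted p = 0.000106, then ACADM by 1.42, ACADS by 1.38, ACAA1 by 1.20, ETFDH by 1.13 and ETFA by 1.03. The others were the 3 regulators PPARG (1.84 ± 0.21 (SE), adjusted p = 1.78e-05), PPARGC1A (1.46) and PPARA (1.02), and FDFT1. PLIN2 (-1.53) and ANGPTL4 (-1.003) fell. At any fold 15 of 38 genes passed as higher on day 7 and 17 on day 12, against 14.6% of all probes in each case, and the 2 comparisons shared the 8 arrays of day 4. The class medians to day 7 and day 12 were 0.66 and 0.96 for beta-oxidation, 0.40 and 0.58 for sterol synthesis and 0.01 and -0.12 for fatty acid synthesis, and HMGCS1 passed to day 7 at 0.87 (adjusted p = 0.00501).

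Several of these calls were close to the thresholds. ETFA on day 12 (adjusted p = 0.0442) ended without any 1 of 14 arrays (adjusted p 0.0508 to 0.134; all but controls 1 and 4, replicates 1 and 4 of 6.7 Gy and 2 of 7.4 Gy at day 4, and replicates 3 and 4 of 6.7 Gy and 2, 3 and 4 of 7.4 Gy at day 7), and its other probe gave 0.49 (adjusted p = 0.116). PPARA ended without any 1 of 5 arrays (down to 0.96: replicates 2 and 4 of 6.7 Gy and replicate 4 of 7.4 Gy on day 4, replicate 1 of 6.7 Gy and replicate 2 of 7.4 Gy on day 12), and ETFDH without replicate 2 of 7.4 Gy on day 12 (0.86). ANGPTL4 ended without any 1 of 7 arrays (up to -0.79: replicates 2 and 3 of 6.7 Gy and replicates 1, 2 and 3 of 7.4 Gy on day 4, and replicate 1 of each dose on day 12), and the 2 other PLIN2 probes gave -0.99 (adjusted p = 0.0121) and -1.07 (adjusted p = 0.00832, called). ACAA1 on day 7 ended without any 1 of 5 arrays (0.91 to 0.99: replicate 2 of 6.7 Gy and replicates 1 and 3 of 7.4 Gy on day 4, replicate 4 of 6.7 Gy and replicate 3 of 7.4 Gy on day 7). From day 7 to day 12 limma called 0 of 38 against 0.118% of all probes, with 5 genes at an unadjusted p under 0.05, all higher (9.62% of all probes, 5.68% higher), and 0 called by the methods' t-test.

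**Figure D5:**
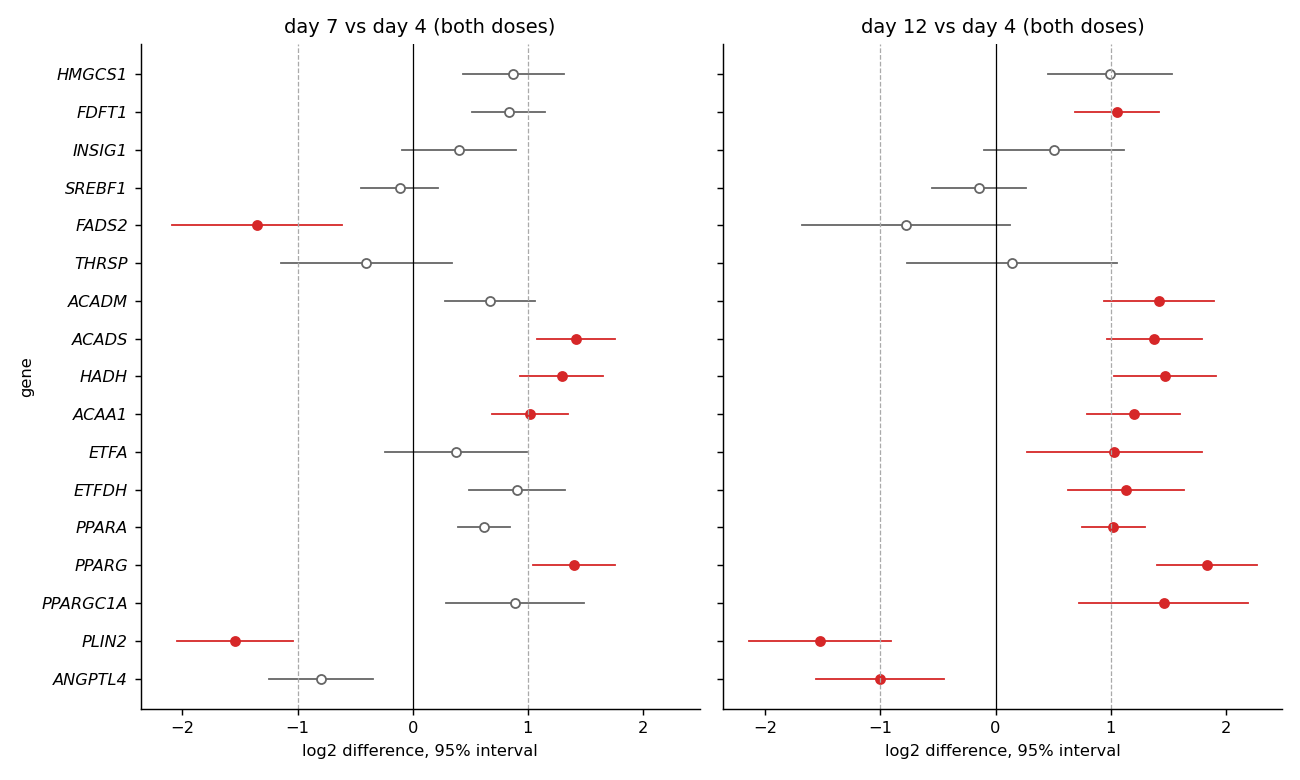
Change from day 4 to day 7 and from day 4 to day 12 over both doses (x axis, log2) for the lipid genes described by array (rows), with 95% intervals as bars. These genes were picked for being called in at least 1 contrast or, in the class with none, for the 2 smallest adjusted p, so they do not stand for all 38. Filled red points are called genes and dashed lines mark a 2-fold change. The 6 called oxidation genes and the 3 regulators lie right of the upper line on day 12, and PLIN2 and ANGPTL4 left of the lower one.

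Of 57 other genes of these pathways, 44 were tested. After 6.7 Gy on day 4, 5 of 44 were called, 2 higher and 3 lower, against 3.61% of all probes (1.83% higher and 1.77% lower). After 7.4 Gy 11 of 44 were called, 2 higher and 9 lower, against 7.04% of all probes (3.37% higher and 3.66% lower). PDK4, the kinase that shuts off pyruvate dehydrogenase and favours fatty acid use, rose by 1.30 ± 0.31 (SE), adjusted p = 0.0141, and 1.91 ± 0.31 (SE), adjusted p = 0.000421. ME1, the malic enzyme that supplies NADPH, rose by 1.41 ± 0.19 (SE), adjusted p = 0.000357, and 1.58 ± 0.19 (SE), adjusted p = 3.24e-05. NR1H4, the bile acid receptor FXR, fell at both doses (-1.47 and -2.12), as did SLC27A2, a fatty acid transporter and activating enzyme (-1.20 and -1.87), and the peroxisomal bifunctional enzyme EHHADH fell after 6.7 Gy (-1.42). Against the controls PDK4 was the only one of the 44 called after day 4, higher by 1.50 on day 7 (adjusted p = 0.0349) and 2.21 on day 12 (adjusted p = 0.0495), both after 7.4 Gy. The shares of all probes called in these 2 comparisons were 0.39% and 0.0262%.

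From day 4 to day 7, 5 of the 44 were called higher and 1 lower, against 4.44% of all probes called. To day 12, 6 were called higher and 1 lower, against 6.51% of all probes (3.83% higher and 2.68% lower). NR1H4 rose by 1.75 and 1.95, EHHADH by 1.42 and 2.04, and SLC27A2 by 1.41 to day 7. The gene that fell was ME1 both times, at -1.20 and -1.85. Median changes on day 4 were -0.49 and -0.62 for the other sterol genes, -0.04 and -0.14 for the other fatty acid and glyceride synthesis genes, -0.13 and -0.54 for the other oxidation genes and -0.40 and -0.74 for the uptake and receptor genes.

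Position on the slide followed the groups in part: all 4 controls were in position 1, day 4 arrays in positions 1 and 2, day 7 arrays in positions 3 and 4 and day 12 arrays in position 4. All 4 arrays of 7.4 Gy on day 4 were in position 2 and shared no position with the controls, and only 6.7 Gy on day 4 was in both positions. For day 7 and day 12, against the controls or against day 4, position cannot be told apart from group. Arrays on 1 slide always differ in position, so comparisons within a slide do not separate position from group. Slides 1 and 2 were scanned on another day than slides 3 to 6, and all 4 arrays of 7.4 Gy on day 4 were on the second scan day. Within each scan day the 6 genes called after 6.7 Gy kept their direction, as did the 11 called after 7.4 Gy on the second, with the within-day changes at 0.66 and 0.64 of the pooled ones or more. Within a slide, where 1 array stood against 1, all kept their direction on the 2 slides that held both groups at each dose, but the changes were as small as 0.45 of the pooled one after 6.7 Gy (HADH) and 0.02 after 7.4 Gy (HMGCS1, -0.03 on slide 3). The 6 genes called from day 4 to day 7 and the 12 called to day 12 also kept their direction within each slide and scan day that held both days, at 0.08 (ACADS, slide 2) and 0.20 (PPARGC1A, slide 5) of the pooled change or more. All these genes were picked by their changes on the same arrays. Their kept direction was thus largely fixed in advance, and nothing about slide, scan day or position is read from it. With position and scan day together in the fit, 3 genes in place of 6 were called after 6.7 Gy and 2 in place of 11 after 7.4 Gy. Over all probes that fit called 1252 of 38168 after 6.7 Gy and 528 after 7.4 Gy, in place of 1378 and 2688 of 38200.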

How the data were processed

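RNA from 24 colon samples was read on 1-colour Agilent rhesus arrays with Feature Extraction 11.0.1.1 (array design on rheMac2). The deposited scanner files hold the processed spot intensity, and a deposited table holds log2 values that the authors made by 75th percentile scaling and centring each probe on its median. From the intensities, log2 values minus the 75th percentile of the array were computed; control spots and outlier spots were left out, spots of a probe averaged, and probes well above background on at least 2 of 24 arrays tested with limma 3.58.1 in R 4.3.3 (1 mean per group, 12 contrasts, Benjamini-Hochberg over all fitted probes). Outlier removal can leave a group with 1 value fewer, and dim probes give compressed folds. Groups follow the sample labels, of which day 12 differs from the last day in the treatment protocol. Array number, 2 to 4 a group, limits precision. P-values measure the spread between arrays of a group. Each animal had 1 array and the main fit held no term for slide, position or scan day. Differences between animals and between slides are thus mixed in that spread.

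The genes and lists were chosen with earlier results of these data known. A gene was described by array if called in at least 1 contrast, or, in a class with none, if among the 2 smallest adjusted p against controls; of the 44 other pathway genes, up to 5 per comparison were named, and 1 of these is not reported here. On simulated arrays for 7.4 Gy on day 4 against controls (36527 probes, 200 changed), 72% of changes of 1.5 and 87% of changes of 2.5 on the log2 scale were called. The simulated noise was independent between arrays. The real arrays deviated together within slides and had 2688 probes called in this comparison, so these rates need not hold for them. Alternatives changed the scaling (quantile, spike-in controls, normexp on the median spot signal with offset 50, the authors' log2 table), the filter, the probes averaged, the blocks and the test (the methods' t-test), or left out 1 array. Replicate numbers did not pair arrays (median correlation 0.0019 over 62 same-number pairs, 13 over 0.1), whereas arrays of different groups on 1 slide deviated together more often (median 0.125 over 36 pairs, 25 over 0.1).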

Additional observations from a re-analysis of the deposited data

Results flagged for a closer look

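Among 103 sets of 4 arrays tested for an outlying array (a described lipid gene or a class mean in 1 group), 5 held an array whose gap to its neighbour passed Dixon's 95% critical value, where chance gives about 1 in 20 sets. They were INSIG1 in replicate 4 of 7.4 Gy on day 7 (-0.78), ACAA1 in replicate 2 of 6.7 Gy on day 4 (2.75) and in replicate 3 of 7.4 Gy on day 7 (4.65), PLIN2 in replicate 2 of 7.4 Gy on day 4 (2.86), and the beta-oxidation mean of replicate 2 of 6.7 Gy on day 4 (-0.90).

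The irradiated groups differed between days, by limma over both doses, in 18 values. From day 4 to day 7 the log2 differences were -1.35 for FADS2, 1.42 for ACADS, 1.29 for HADH, 1.02 for ACAA1, 1.40 for PPARG and -1.55 for PLIN2. From day 4 to day 12 they were 1.05 for FDFT1, 1.42 for ACADM, 1.38 for ACADS, 1.47 for HADH, 1.20 for ACAA1, 1.03 for ETFA, 1.13 for ETFDH, 1.02 for PPARA, 1.84 for PPARG, 1.46 for PPARGC1A, -1.53 for PLIN2 and -1.003 for ANGPTL4.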

How the results depend on the processing

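Over all alternatives, 1242 recomputed changes of called lipid genes kept their direction and call, 156 lost the call and 1 reversed: PPARGC1A after 7.4 Gy on day 4 was 0.023 (adjusted p = 0.994) with blocks for array position and scan day. The number called after 6.7 Gy on day 4 was 6, with the methods' t-test 1 and with position and scan day 3; after 7.4 Gy it was 11, with spike-in scaling 7 and with position and scan day 2. The single call on day 7 after 6.7 Gy became 0 with normexp, spike-in scaling, no filter, the strict filter, the methods' t-test, slide, scan day or replicate block, the groups compared alone or the mean over probes, and that after 7.4 Gy became 0 with normexp, the strict filter, the methods' t-test or the groups compared alone. Leaving out 1 array gave 4 to 7 and 9 to 13 calls on day 4, 0 to 1 on day 7 at each dose, 5 to 7 from day 4 to day 7 and 8 to 13 from day 4 to day 12; a group left with 1 array was taken to vary like the others. With slide as a block, 9 changes lost the call: after 6.7 Gy ETFDH (-0.91, adjusted p = 0.0978), HADH (-0.98) and PLIN2 (1.26, adjusted p = 0.077) on day 4 and THRSP on day 7 (adjusted p = 0.0633), after 7.4 Gy on day 4 ACAA1 (-0.86) and ACADM (-0.95), and between days ACAA1 to day 7 (0.94) and ETFA (0.95) and PPARA (0.97) to day 12. With the replicate block 6 and 11 genes were called at day 4, 0 and 1 at day 7, and 6 and 12 between day 4 and the later days.

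Class medians moved by more than the spread between arrays in few settings. With spike-in scaling they were -0.27 and -0.36 for sterol synthesis on day 4 and 0.014 on day 12 after 7.4 Gy, and, after 7.4 Gy on day 4, -0.050 for sterol regulators, 0.20 for fatty acid synthesis and -0.37 for beta-oxidation. With position as a block they were -0.93 for sterol synthesis after 7.4 Gy, -0.80 and -1.26 for beta-oxidation and -0.94 for the PPAR regulators after 7.4 Gy, all on day 4. Position and scan day together gave 0.42 and 0.40 for sterol regulators on day 4, and the replicate block -0.23 on day 12 after 7.4 Gy; with the brightest INSIG1 probe by any name, an alternative chosen after seeing the data, their median was -0.021 on day 12 after 6.7 Gy. With normexp fatty acid synthesis was 0.29 on day 12 after 7.4 Gy, and the activation, droplet and PPAR-responsive genes were 1.06 on day 4 and 0.62 on day 12 after 7.4 Gy. Leaving out 1 array gave -0.93 (without control 3) to -0.63 for sterol synthesis and -1.02 (without replicate 2 of 6.7 Gy on day 12, when 3 oxidation genes could not be fitted) to -0.62 for beta-oxidation after 7.4 Gy on day 4, -0.24 to 0.15 for sterol synthesis and -0.55 to 0.030 for sterol regulators on day 12 after 6.7 Gy, and -0.17 to 0.29 for sterol regulators on day 12 after 7.4 Gy.

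Over all probes, spike-in scaling moved the median change on day 4 from -0.07 to 0.15 after 6.7 Gy and from -0.08 to 0.21 after 7.4 Gy, and split the calls 1378 higher and 370 lower (700 and 678 before) and 2779 higher and 744 lower (1288 and 1400 before). Normexp called 717 and 1424 probes in place of 1378 and 2688, the methods' t-test 488 and 1637, and position and scan day together 1252 and 528. Fits with position could not be made for day 7 or day 12 against the controls or against day 4. Depth is not defined for arrays; THRSP, ETFA, SCD, ELOVL5, HADHA, ACSL1 and LSS had dim probes, whose changes are the least precise.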
